A study of Mus musculus with 6 samples.

Results

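The lysosomal cathepsins are the proteases that degrade protein inside lysosomes, and 10 of their genes were examined in the quadriceps of AR97Q mice with and without exercise: Ctsa, Ctsb, Ctsc, Ctsd, Ctsf, Ctsh, Ctsk, Ctsl, Ctss and Ctsz. Members were every array probe that is not a control and whose transcript identifier belongs to one of these genes in the RefSeq mouse annotation, which gave 15 probes for the 10 genes, out of 56605 probes. All 15 probes were well above background on all 6 arrays, and all 10 genes were among the 25005 genes and transcripts tested. AR97Q mice carry a human androgen receptor transgene with an expanded CAG repeat on a C57BL/6J background and model spinal and bulbar muscular atrophy (SBMA). Both groups consisted of male AR97Q mice aged 9 weeks, with 3 mice each, and the RNA of each mouse was hybridised to its own array. The exercise group had been made to run on a wheel at 5 m/min for 60 min a day, 5 days a week for 4 weeks from 5 weeks of age, whereas the sedentary group had no such training. Every mouse on the arrays carried the transgene, so the comparison shows exercise within the disease model and not the difference from a healthy mouse.

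Most cathepsins are cysteine proteases of the papain family (B, C, F, H, K, L, S and Z), whereas cathepsin D is an aspartic protease and cathepsin A is a serine carboxypeptidase that also protects other lysosomal enzymes. They are made as inactive precursors, are carried to the lysosome largely by mannose 6-phosphate receptors, become active in the acid that the V-ATPase proton pump provides, and are inhibited by cystatins. In muscle, cathepsins B, D and L take part in the turnover of proteins and organelles delivered by autophagy, while cathepsin S is best known from macrophages and other antigen-presenting cells, and cathepsin K from osteoclasts.

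Transcription factors of the MiT/TFE family, which include TFEB, bind a short element with the core CACGTG in many lysosomal genes, so the start regions of the cathepsin genes were searched for it. Windows of 250 bases before to 50 bases after the start site (RefSeq, build GRCm38.p6) were matched for 8 of the 10 genes, all but Ctsb and Ctsh, with 9 windows in all because Ctsa has 2. The core, which reads the same on both strands, was present in 4 genes. Each match is given with its flanking bases in lower case and the core in capitals, 5′ to 3′ on the strand of the gene, and the position is that of the first base of the core relative to the start site.
Ctsa at -12, in chr2:164833523-164833822, plus strand: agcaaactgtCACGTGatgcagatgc
Ctsa at 6, in the same window: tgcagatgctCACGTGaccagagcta
Ctsd at -245, in chr7:142387778-142388077, minus strand, where the window begins 5 bases before the core: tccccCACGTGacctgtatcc
Ctsd at -98, in the same window: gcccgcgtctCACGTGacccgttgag
Ctsf at -79, in chr19:4854915-4855214, plus strand: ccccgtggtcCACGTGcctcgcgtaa
Ctsl at -236, in chr13:64370471-64370770, minus strand: cgttagaagcCACGTGctgatctaaa
Of all 32851 windows, 7.15% held CACGTG, and of the 27025 genes with a window, 8.09% did. The longer form TCACGTG, searched on both strands and overlapping the core, was present in 2 of the cathepsin genes, Ctsa and Ctsd. It was present in 3.77% of all windows and 4.29% of all genes with a window. A match describes the letters and does not show that a factor binds there.

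Each value is the brightness of a probe on a log2 scale relative to the 75th percentile of its array, so that 0 is that percentile. Levels of different probes depend on the probe and are not compared with each other. Before scaling, the 75th percentile was between 251 and 257 intensity units on the exercise arrays, was 310 on sedentary 1, and was 371 and 384 on sedentary 2 and 3. All arrays were on 1 slide, in 2 strips. Sedentary 1 shared a strip with the 3 exercise arrays, and sedentary 2 and 3 lay in the other strip, so strip and group overlap in part. Probes well above background made up 54.6 to 59.9% of an array, and saturated spots were absent (0 on each). The muscle fibre genes Ckm and Acta1 were far above the 75th percentile in all 6 mice (6.90 to 8.87 and 8.66 to 9.80). Both genes are defining markers of skeletal muscle. The number of arrays limits the precision.

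None of the 10 cathepsin genes passed the threshold between exercise and sedentary mice (limma, Benjamini-Hochberg adjusted p under 0.05 over all genes), and every difference lay between -0.42 and 0.34 on the log2 scale, a change of -25.5% to 26.5%. Among all genes tested, 11.5% were called higher and 6.15% lower, 17.6% in all, and their median difference was 0.03. These calls rested on most of the arrays: 0 genes were called higher and at most 1 lower without any 1 of exercise 1, 2 and 3 and sedentary 2 and 3. Without sedentary 1, 3468 were called higher and 2063 lower, but the groups then lay in different strips, so group and strip cannot be told apart. The median of the cathepsins was -0.05, with 5 differences above 0 and 5 below. At an unadjusted p under 0.05, limma passed 2 of the 10 (Ctsf and Ctsl, both lower), and the methods' t-test passed 1 higher (Ctsd) and 1 lower (Ctsf), but none after Benjamini-Hochberg adjustment. Of all genes tested, limma passed 21.6% as higher and 15.4% as lower at this unadjusted threshold. The methods' test passed 20.6% as higher and 12.8% as lower, so a pass without adjustment was common among all genes. The 95% intervals of the differences had a median reach of 0.28 to either side. In whole muscle, fewer cells of a type and less RNA per cell cannot be told apart.

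**Figure D1:**
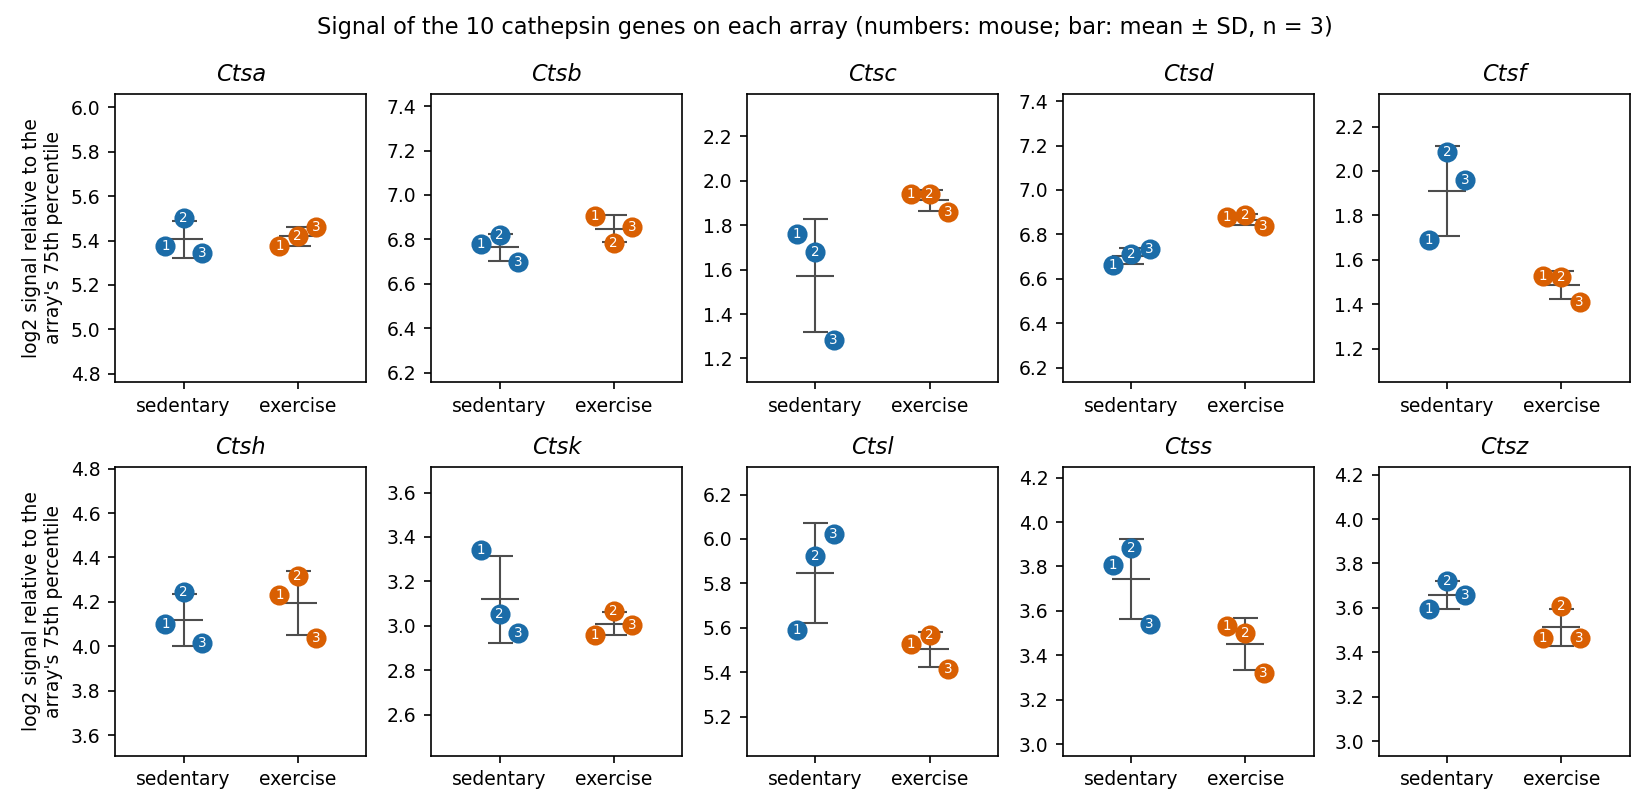
Log2 signal of each cathepsin gene relative to the array's 75th percentile (vertical axis, with the same height but its own position in every panel) in sedentary and exercise mice; numbered points are single mice and bars are the mean ± SD (n = 3 per group). On this scale Ctsc and Ctsd lie higher in all exercise mice (both turn below 0 with no scaling), Ctsf, Ctsl and Ctss lie lower in all of them, and the groups overlap in the other 5 genes.

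The groups did not overlap in 5 of the 10 genes, 2 higher and 3 lower, against 43.2% of all genes tested (25% higher and 18.2% lower), so the share in the cathepsins was near that in all genes. With 3 arrays against 3, a group without overlap has an exact permutation p of 0.1 (two-sided), which is the smallest that this design allows.

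Cathepsin F, a cysteine protease with a long propeptide, had the largest difference of the 10. The Ctsf signal was 1.52, 1.52 and 1.41 in exercise mice 1 to 3 and 1.69, 2.09 and 1.96 in sedentary mice 1 to 3. All exercise mice were below all sedentary mice, and sedentary 1 was the nearest to them. The means were 1.49 ± 0.065 in the exercise group and 1.91 ± 0.20 in the sedentary group (SD, n = 3 each), a log2 fold change of -0.42 (SE 0.12, 95% interval -0.72 to -0.13, limma adjusted p = 0.0615), which did not pass the threshold. Against sedentary 1 alone, the array of the same strip, the difference was -0.20, and against sedentary 2 and 3 it was -0.54. Without sedentary 1 Ctsf was called lower, with an adjusted p of 0.0213 in limma, but the groups then lay in different strips. Group and strip cannot be told apart in that comparison. The log2 fold change of -0.42 over all arrays placed Ctsf at the 13.4th percentile of all log2 fold changes.

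Cathepsin L, a major endopeptidase of the lysosome that is raised in many forms of muscle wasting, was also lower in every exercise mouse, with sedentary 1 again nearest to them. Its signal was 5.52, 5.57 and 5.42 in exercise mice and 5.59, 5.92 and 6.02 in sedentary mice. The groups did not overlap, but sedentary 1 exceeded the highest exercise mouse by a margin smaller than the spread within the exercise group. The log2 fold change was -0.34 (SE 0.13, 95% interval -0.67 to -0.02, limma adjusted p = 0.118). Without sedentary 1 it was -0.47 and was called lower (limma adjusted p = 0.0292), and against sedentary 1 alone it was -0.09. Group and strip cannot be told apart when sedentary 1 is left out. The design prints this Ctsl probe at 10 spots per array, which allowed the error within an array to be measured. The SD of the log2 signal between these spots was between 0.056 and 0.063 per array, less than the SD between mice of 0.077 in the exercise group and 0.23 in the sedentary group. A further Ctsl probe, much dimmer, gave -1.27 ± 0.17 in exercise and -1.26 ± 0.17 in sedentary mice (SD, n = 3), a difference of -0.01. The lower signal in the exercise group was thus seen with only 1 of the 2 Ctsl probes.

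Cathepsin S, the protease that trims the invariant chain in antigen presentation, gave 3.53, 3.50 and 3.32 in exercise mice and 3.81, 3.88 and 3.54 in sedentary mice. Here the nearest sedentary mouse was 3, not 1, and it exceeded exercise mouse 1 by less than the SD of either group. The log2 fold change was -0.29 (SE 0.12, 95% interval -0.59 to 0.01, limma adjusted p = 0.142), and it was -0.36 against sedentary 1 alone and -0.26 against sedentary 2 and 3.

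Cathepsin C, or dipeptidyl peptidase 1, activates the serine proteases of granules in immune cells and was the member with the largest positive difference. Its brightest probe gave 1.94, 1.94 and 1.86 in exercise mice and 1.76, 1.68 and 1.28 in sedentary mice. All exercise mice were higher, and sedentary 3 was well below the other 2 sedentary mice. The means were 1.91 ± 0.047 and 1.57 ± 0.26 (SD, n = 3 each), a log2 fold change of 0.34 (SE 0.14, 95% interval -0.0028 to 0.68, limma adjusted p = 0.138). It was 0.15 against sedentary 1 alone and 0.43 against sedentary 2 and 3, and without sedentary 3 it was 0.19 (limma adjusted p = 0.240). Both further Ctsc probes, which target another transcript of the gene, were higher as well. The first gave 0.27, 0.43 and -0.06 in exercise mice and -0.40, -0.51 and -0.37 in sedentary mice. These groups did not overlap, and the difference of 0.64 (SE 0.14) passed the threshold when every probe was tested by itself (limma adjusted p = 0.0350 over all 32726 probes, of which 10.5% were called higher). The other, the dimmest of the 3, gave a difference of 0.52 that did not pass (limma adjusted p = 0.0975), and exercise mouse 3 lay level with sedentary mouse 1. Taking the mean of the 3 probes gave 0.50 with an adjusted p of 0.0498 in limma, so the call for Ctsc depended on the probe chosen to stand for the gene.

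Cathepsin D, the main aspartic protease of the lysosome, gave 6.88, 6.89 and 6.84 in exercise mice and 6.66, 6.71 and 6.73 in sedentary mice. The groups were apart and each was tight, with means of 6.87 ± 0.027 and 6.70 ± 0.035 (SD, n = 3 each). The log2 fold change was 0.16 (SE 0.076, 95% interval -0.02 to 0.35, limma adjusted p = 0.170), a 1.12-fold higher signal. It was 0.20 against sedentary 1 alone and 0.15 against the other 2 sedentary mice, so this difference, unlike that of Ctsf or Ctsl, was about as large within the strip. The direction of Ctsd depended on the scaling, being -0.12 with quantile normalisation and -0.31 with no scaling.

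**Figure D2:**
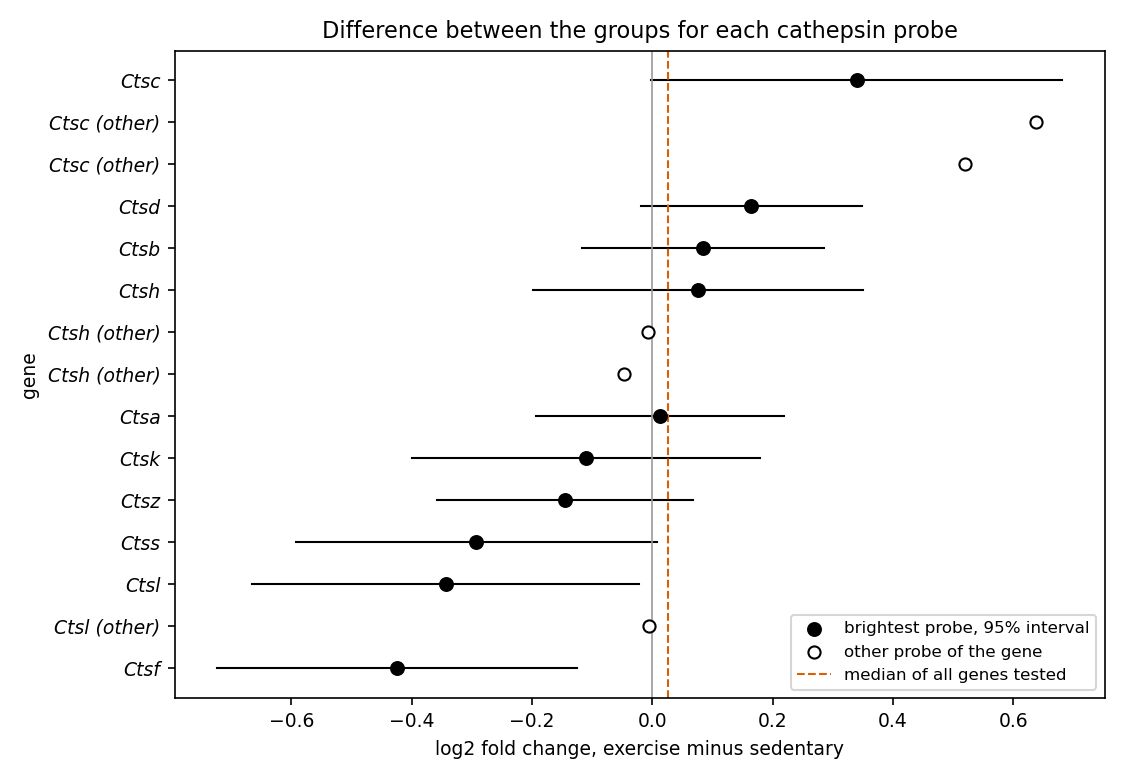
Log2 fold change (horizontal axis, exercise minus sedentary) of the brightest probe of each cathepsin gene with its 95% interval (filled) and of the further probes of Ctsc, Ctsh and Ctsl (open), with the median of all genes tested as a dashed line. The filled points run from -0.42 for Ctsf to 0.34 for Ctsc, all 3 Ctsc probes lie above 0, and the open Ctsl point lies at -0.01.

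In the remaining 5 genes the groups overlapped. Cathepsin B, an abundant endopeptidase and carboxypeptidase, gave 6.91, 6.78 and 6.86 in exercise mice and 6.78, 6.82 and 6.70 in sedentary mice, a log2 fold change of 0.08 (95% interval -0.12 to 0.29, limma adjusted p = 0.495). Cathepsin A gave 5.38, 5.42 and 5.46 against 5.37, 5.50 and 5.34, with a log2 fold change of 0.01 (95% interval -0.19 to 0.22, limma adjusted p = 0.929). For these 2 genes the intervals leave out a change of 0.3 in either direction on the scale used here. Cathepsin Z, a carboxypeptidase, was 3.46, 3.61 and 3.47 in exercise mice and 3.59, 3.72 and 3.66 in sedentary mice, and only exercise mouse 2 reached into the sedentary range. Its log2 fold change was -0.15 (95% interval -0.36 to 0.07, limma adjusted p = 0.274).

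Cathepsin H, an aminopeptidase, gave 4.23, 4.32 and 4.04 in exercise mice and 4.10, 4.24 and 4.01 in sedentary mice, a log2 fold change of 0.08 (95% interval -0.20 to 0.35, limma adjusted p = 0.653), and its 2 dimmer probes gave -0.05 and -0.01. Cathepsin K, a collagenase, gave 2.96, 3.07 and 3.00 in exercise mice and 3.34, 3.05 and 2.97 in sedentary mice. The Ctsk values of sedentary 2 and 3 fell within the exercise range, and sedentary 1 alone was higher. Its log2 fold change was -0.11 (95% interval -0.40 to 0.18, limma adjusted p = 0.533), being -0.33 against sedentary 1 and 0.00 against sedentary 2 and 3.

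The difference between Ctsc and Ctsf within an array does not depend on any scaling by 1 factor per array. These genes were chosen as the highest and lowest of the 10, so the value is a description with no test. The Ctsc signal minus the Ctsf signal was 0.41, 0.42 and 0.45 in exercise mice and 0.07, -0.41 and -0.68 in sedentary mice. Exercise mice were nearly alike, and the sedentary mice spread over a wide range below them.

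The genes with the core CACGTG in the windows above did not share a direction: the log2 fold changes were 0.01 for Ctsa, 0.16 for Ctsd, -0.42 for Ctsf and -0.34 for Ctsl. Of the MiT/TFE factors, Tfeb gave 1.60, 1.53 and 1.42 in exercise mice and 1.44, 1.06 and 0.94 in sedentary mice, with overlap between exercise 3 and sedentary 1, and a log2 fold change of 0.37 (limma adjusted p = 0.125). Tfe3 and Mitf had log2 fold changes of 0.07 and 0.06, and Tfec was not well above background on enough arrays to be tested. None of the 3 tested factors passed the threshold (limma).

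Other cathepsins were near or below the limit of detection. Of 12 further genes of the family, which include the granule protease Ctsg, the gastric protease Ctse and a group known from the placenta, 10 were well above background on at most 1 of the 6 arrays. The other 2, Ctso and Ctsw, were dim and had log2 fold changes of -0.15 and -0.53 (limma adjusted p = 0.617 and 0.475).

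The calls in the lists below span both strips of the slide, so strip and group overlap in part there too. With the strip as a block, 0 of all genes tested were called higher and 3 lower (limma). Among the inhibitors, Cst3, which encodes the secreted inhibitor cystatin C, rose. Its signal was 7.42, 7.34 and 7.35 in exercise mice and 6.96, 6.75 and 6.75 in sedentary mice, without overlap. The log2 fold change was 0.55 (SE 0.094, limma adjusted p = 0.0239), and it stayed above 0 under each of the 5 other ways of scaling or background correction, down to 0.08 with no scaling, but the call was lost with no scaling and with quantile normalisation (0.22). Of 11 listed cystatin genes 3 were tested, and the other 2 did not pass: Cst6 had a log2 fold change of 0.22 and Cstb, the intracellular inhibitor cystatin B, 0.03.

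Few of the other lysosomal enzymes passed the threshold. Of 35 hydrolases and cofactors, 1 rose and 1 fell, with 25 differences below 0, 10 above 0 and a median of -0.12. These counts moved with the scaling, to 0 higher and 10 lower with the deposited values, 2 and 6 with normexp, and 0 and 29 with no scaling. Of all genes, 4.69% were called higher and 12.8% lower with the deposited values. The shares were 24.5% and 8.08% with normexp, and 2.47% and 45.1% with no scaling. Lgmn, which encodes the asparaginyl endopeptidase legumain that processes several cathepsins, gave 4.80, 4.65 and 4.67 in exercise mice and 5.09, 5.32 and 5.14 in sedentary mice, a log2 fold change of -0.47 (SE 0.0997, limma adjusted p = 0.0309). It was below 0 under every scaling tried, but was not called with the array median subtracted (-0.38). Smpd1, the acid sphingomyelinase, had a log2 fold change of 0.35 (limma adjusted p = 0.0389), but -0.12 with no scaling, and it was not called with quantile normalisation, the array median or the deposited values either.

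Of 18 proteins of the lysosomal membrane, 3 rose and 2 fell, with a median of 0.05. Abcb9 (a peptide transporter), Npc1 (cholesterol export) and Lamp1 (the major membrane glycoprotein) rose by 0.42, 0.40 and 0.33 on the log2 scale. All 3 turned below 0 with no scaling, at -0.06, -0.08 and -0.14, and Lamp1 also with quantile normalisation, at -0.02. Slc38a9, the arginine sensor of mTORC1 at the lysosome, and Clcn7, a chloride and proton exchanger, fell by 0.53 and 0.35, and both were below 0 under each scaling, but neither was called with the array median subtracted (-0.44 and -0.27). With quantile normalisation, the deposited values and no scaling, 0 of the 18 were called higher, and 3, 5 and 9 were called lower. Of all genes, 7.46%, 4.69% and 2.47% were called higher under these settings, and 5.45%, 12.8% and 45.1% lower. Of the V-ATPase genes, 17 of 18 were tested and 1 fell, Atp6v1a, the catalytic subunit, with a log2 fold change of -0.62 (SE 0.12, limma adjusted p = 0.0277). The median of the V-ATPase list was -0.03.

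In the sorting machinery, 1 of 10 genes rose. Sorl1, a sorting receptor, gave 2.93, 3.14 and 3.09 in exercise mice and 2.63, 2.22 and 1.93 in sedentary mice, a log2 fold change of 0.80 (SE 0.19, limma adjusted p = 0.0377). It stayed above 0 under each scaling, from 0.32 to 0.88, but was not called with quantile normalisation, no scaling or the deposited values. The mannose 6-phosphate receptors did not pass: Igf2r had a log2 fold change of -0.45 (limma adjusted p = 0.0585) and M6pr of -0.19 (limma adjusted p = 0.220). Of 12 genes of muscle protein breakdown, 1 fell, the ubiquitin ligase Fbxo30, by 0.51, and 11 did not pass. It was not called with quantile normalisation or the array median subtracted.

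**Figure D3:**
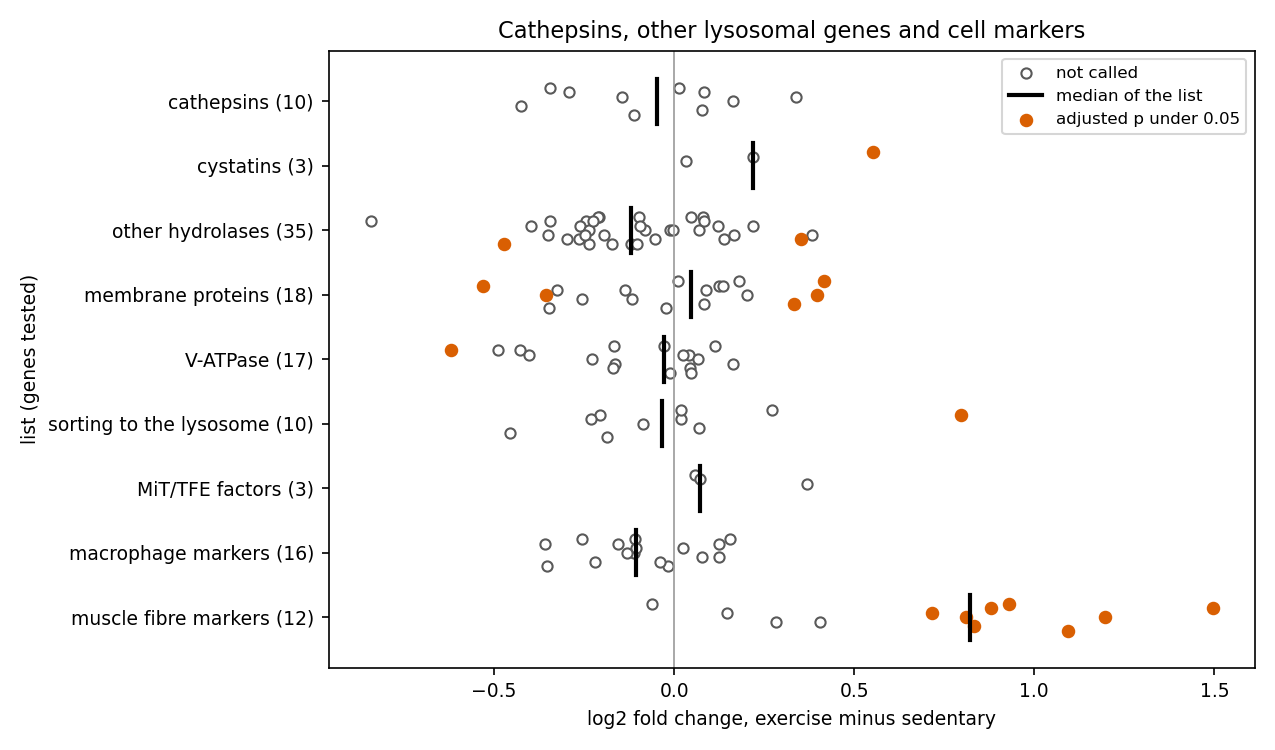
Log2 fold change (horizontal axis, exercise minus sedentary) of each tested gene in the cathepsins, the other lysosomal lists and 2 marker lists (rows, with the number of genes tested); filled points passed an adjusted p under 0.05 and black bars are list medians. None of the 10 cathepsins is filled, while 8 of the 12 muscle fibre markers are, all above 0.

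Cell type markers were read beside the cathepsins, since macrophages hold much of the cathepsin S in a tissue. None of 16 macrophage markers passed the threshold in either direction (limma), and 11 of 16 differences were below 0, with a median of -0.11. Their summed linear signal was between 95.8 and 112 in the exercise group and between 94.4 and 113 in the sedentary group, so the ranges nearly coincided. The defining genes Cd68, Adgre1 and Csf1r had log2 fold changes of -0.11, -0.26 and 0.12. Sedentary 1 had the highest Adgre1 signal, 2.78 against 1.59 to 2.05 in the other 5 mice, and it also had the highest Ctsk signal. Its summed macrophage signal, 113, was close to the 112 of exercise 2, and the highest Ctss signal was that of sedentary 2. The summed fibroblast signal was also highest in sedentary 1, at 1064 against 790 to 937 in the other 5 mice. The part of macrophages or fibroblasts in the Ctss and Ctsk differences was not tested.

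Markers of the muscle fibre itself moved with the groups. Of 12, 8 rose and none fell, with a median of 0.82, and the summed signal was between 6242 and 7022 in the exercise group and between 3195 and 4481 in the sedentary group. With quantile normalisation 4 were called higher with a median of 0.23, and with no scaling 6 were, with a median of 0.35. Of all genes, 7.46% and 2.47% were called higher under these settings. Ckm, the muscle creatine kinase, Mb, myoglobin, and Mylpf, the fast light chain, rose by 1.50, 1.20 and 1.09 on the log2 scale, and Acta1, the skeletal actin, rose by 0.93, while Des, desmin, had a log2 fold change of 0.15 and did not pass. The highest sedentary sum, 4481, was that of sedentary 1, the sedentary array in the strip of the exercise arrays. Its Ckm signal was 7.79, against 7.28 and 6.90 in sedentary 2 and 3 and 8.73 to 8.87 in exercise mice. Strip and group overlap in part for these calls too. Among the cathepsins whose groups did not overlap, sedentary 1 was the sedentary array nearest the exercise mean for Ctsc, Ctsf and Ctsl. For Ctsd it was the farthest, and for Ctss sedentary 3 was nearest. Among the overlapping genes, sedentary 1 was nearest for Ctsa and Ctsz and farthest for Ctsk, and sedentary 2 was nearest for Ctsb and Ctsh. Whether the fibre signal has a part in the cathepsin differences was not tested.

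Among the other marker lists, none of the fibroblast (11 tested), endothelial (10), lymphocyte (8) and erythroid (5) genes passed (limma). In 3 lists a single gene passed: Camp of the neutrophil list fell by 1.29, Pax7 of the satellite cell list fell by 0.60, and Lep of the adipocyte list rose by 0.35, though Lep was at -0.12 with no scaling. Lep was the exception in its list: the other 7 adipocyte markers were below 0 and did not pass, the median was -0.68, and Adipoq (adiponectin) had a log2 fold change of -0.96 (limma adjusted p = 0.182). Their summed signal was between 240 and 630 in the exercise group and between 426 and 551 in the sedentary group. Neither Camp nor Pax7 was called with the array median subtracted. The size of the Camp difference depended on the background correction, being -0.44 with normexp. There 2 of the 8 neutrophil markers were called higher and 1 lower, against 24.5% and 8.08% of all genes. Without sedentary 1, where group and strip coincide, 4 of the 5 erythroid genes were called higher, and neither Camp nor Lep was called. Of all genes, 13.9% were called higher there. The summed neutrophil signal was between 66.0 and 71.6 in the exercise group and between 71.7 and 76.9 in the sedentary group.

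**Figure D4:**
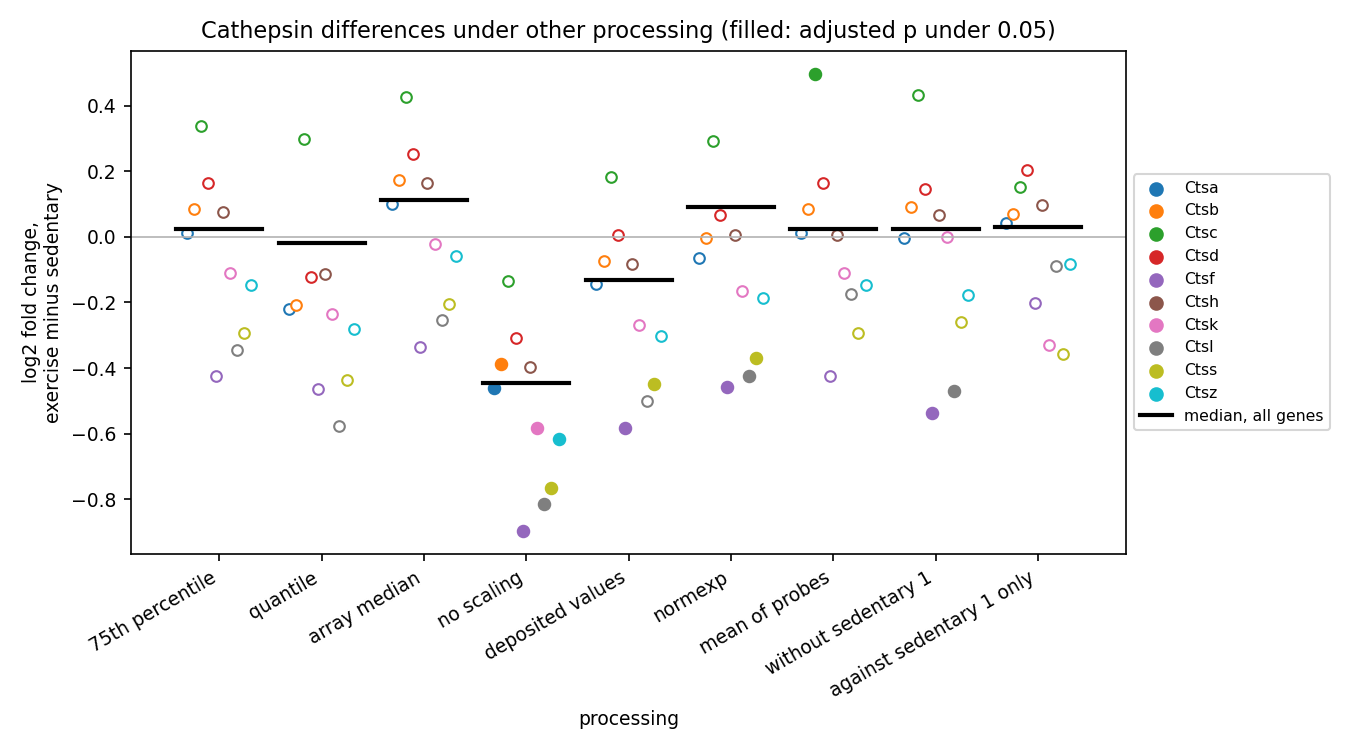
Log2 fold change (vertical axis, exercise minus sedentary) of the 10 cathepsins (colours) under 9 ways of processing the arrays (horizontal axis); filled points passed an adjusted p under 0.05 and black bars are the median of all genes under that processing. Ctsf, Ctsl, Ctss and Ctsz stay below 0 throughout, and with no scaling the median of all genes falls to -0.45 and 7 cathepsins are filled.

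Across 21 alternative analyses, Ctsf, Ctsl, Ctss and Ctsz were below 0 each time, but in some of these the sign was fixed in advance. The other filters, the replicate block, trend and robust, and the methods' test left every cathepsin difference unchanged, at -0.42 for Ctsf. Those settings could change only whether a gene was called. The choice of probe could not change Ctsf, Ctss or Ctsz either, as each has a single probe. The sign was thus open to change only in the remaining analyses. The Ctsf difference ranged from -0.90 to -0.20 and was called lower in 7 of the 21, Ctsl ranged from -0.82 to -0.09 and was called in 4, and Ctss from -0.77 to -0.20 and was called in 3. Ctsc was above 0 in 20 of the 21 and called higher in 2. With no scaling, 7 cathepsins were called lower, but 45.1% of all genes were too and the median of all genes was -0.45, against which the median of the cathepsins, -0.52, lay 0.07 lower. With the deposited values 2 were called lower (Ctsf and Ctss, 12.8% of all genes), and with normexp background correction 3 were (Ctsf, Ctsl and Ctss, 8.08% of all genes).

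As a description of which genes followed the same pattern, the signal of Ctsc and of Ctsf was correlated with that of 15737 other named genes over the 6 arrays, which share 1 slide and the scaling. Nearest to Ctsc were Gemin5 (r = 0.995), Slc35b2 (0.994) and A430088P11Rik (0.993). Nearest to Ctsf were Stambp (r = 0.999), Ppp1r3e (0.996) and 5033421B08Rik (0.995). Of all the genes compared, 3.65% had r above 0.9 with Ctsc and 6.45% with Ctsf.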

How the data were processed

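Total quadriceps RNA of 6 mice was labelled with 1 dye and hybridised to Agilent mouse arrays by a service company, per the methods. The images were read with Feature Extraction (submitters' processing notes), in version 12.1.0.3 by the headers of the scanner output. In the deposited scanner files each spot has a linear intensity from which background was already subtracted, raw median signals and quality flags. A further deposited table equals that intensity times 1 factor per array, from 1.33 to 1.88. The methods name iDEP and require an FDR under 0.05 with a log2 change of 1 or more in size, a rule that 2.78% of all genes met here and no cathepsin. Control spots (3671 of 62976) and outlier spots were left out, log2 of the deposited intensity was taken, replicate spots were averaged, and values were scaled by subtracting the 75th percentile of the array. Of 56583 probes with a value on every array, the 32726 that were well above background in 3 or more mice were used. Probes were named by matching their transcript identifiers to a RefSeq table of GRCm38.p6, used for names only (34566 matched, 22039 did not), and a gene was represented by its probe with the highest mean. Differences were tested two-sided in limma 3.58.1 (R 4.3.3; lmFit, then eBayes) with no covariates and Benjamini-Hochberg adjustment over 25005 genes and transcripts, and the script was tested on simulated data. Single values were compared with an exact permutation test. Summed signals of a list are sums of linear signals relative to the array's 75th percentile.

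The members and lists were chosen with earlier results of these data known. Genes named besides the members are those that passed the threshold in a list (up to 3 in each direction), the first 3 of each marker list (the muscle fibre and macrophage lists; the first 3 of the other marker lists are covered by their counts), and the 3 nearest to the extreme members. Cst6, Cstb, Tfe3, Mitf, Tfeb, Igf2r, M6pr, Ctso, Ctsw and Adipoq were named beyond this rule after their values were seen. The alternatives were other scalings, the deposited values, normexp (offset 50), other filters and choices of probe, each array left out, replicate and strip blocks, other variance models, the methods' t-test and other thresholds. The unadjusted threshold, the lists under other scalings and each Ctsc probe alone were added after the data were seen. Protein sequences were not analysed here, and 1 marker list is not reported here.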

Additional observations from a re-analysis of the deposited data

How the results depend on the processing

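The count of genes called moved with most choices, as higher and lower against 2867 and 1539: 1865 higher with quantile normalisation, 872 lower with the array median subtracted, 617 and 11280 with no scaling, 1172 and 3201 with the deposited values, 6134 higher with normexp, 9737 higher with no filter, 5117 and 3639 with array weights, 438 and 206 with the methods' t-test after Benjamini-Hochberg (5156 and 3193 at its unadjusted threshold), 429 and 265 with the fold threshold added, 4614 and 3089 at an adjusted p under 0.1, 5391 and 3860 at an unadjusted p, and 0 and 3 with the strip as a block or 0 and 0 against sedentary 1 alone. Leaving out each array in turn gave 0 to 3468 higher and 0 to 2063 lower: 0 higher and at most 1 lower without any 1 of exercise 1, 2 and 3 and sedentary 2 and 3, and the larger counts without sedentary 1. In that last case group and strip coincide.

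Cathepsins were called lower in 7 cases with no scaling (Ctsa, Ctsb, Ctsf, Ctsk, Ctsl, Ctss and Ctsz), 2 with the deposited values, 3 with normexp, 1 with the filter on all 6 arrays, 1 with trend and robust and 1 at an adjusted p under 0.1 (Ctsf each time), 2 with array weights (Ctsf and Ctsl), 2 at an unadjusted p in limma and 1 with the t-test at its unadjusted threshold. One, Ctsc, was called higher with the mean of the probes and with the probe of the largest SD, and 1, Ctsd, with the t-test at its unadjusted threshold. Of all genes, 7.82% were called lower with the filter on all 6 arrays, 7.98% with trend and robust and 12.4% at an adjusted p under 0.1. The share was 14.6% with array weights, 15.4% at the unadjusted p in limma and 12.8% with the t-test. Called higher were 10.8% with the mean of the probes, 10.1% with the probe of the largest SD and 20.6% with the t-test. Leaving out each array in turn gave 0 called higher and 0 to 2 called lower. The median of the cathepsins was -0.23 (quantile), 0.0398 (array median), -0.52 (no scaling), -0.21 (deposited values) and -0.11 (normexp), and -0.08 to -0.0014 with an array left out, while the median of all genes was 0.11 (array median), -0.45, -0.13, 0.09 (normexp) and 0.18 (no filter).

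Directions turned with quantile normalisation for Ctsa (-0.22), Ctsb (-0.21), Ctsd (-0.12) and Ctsh (-0.11), with no scaling for Ctsa (-0.46), Ctsb (-0.39), Ctsc (-0.13), Ctsd (-0.31) and Ctsh (-0.40), with the deposited values for Ctsa (-0.14), Ctsb (-0.0734) and Ctsh (-0.0811), with normexp for Ctsa (-0.0629) and Ctsb (-0.0020), with the probe of the largest SD for Ctsh (-0.0079), with array weights for Ctsa (-0.0474), and with an array left out for Ctsa (-0.0188 to 0.0597) and Ctsk (-0.19 to 0.00012). The cause was not tested. The replicate number as a block gave 0 genes called in either direction and 0 cathepsins. Deviations from the group mean had correlations of 0.02, 0.08 and 0.04 between arrays of the same number, and of -0.11 to 0.07 between other arrays of the 2 groups. The labels do not say whether the numbers pair the mice, and these few values cannot decide it.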
